A study of Mus musculus with 764 samples.

Results

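Il10, which encodes the cytokine interleukin-10, and 9 transcription factors linked to its expression in T cells (Maf, Batf, Nfil3, Prdm1, Ahr, Bhlhe40, Irf4, Irf1 and Stat3) were followed in single IL-10-producing CD4+ T cells. The 10 genes were chosen by name, as known regulators, out of 23997 gene rows, and all 10 passed the low-value filter (a mean of at least 10 CPM, reads scaled to one common total in every cell, in at least 1 set of cells) that left 9266 genes. Mice were given anti-CD3, an antibody that activates T cells through their receptor, and T cells of spleen and small intestine were sequenced one by one with the SMART-seq2 protocol, which amplifies whole transcripts. The mice carried an eGFP reporter in Il10 and an mRFP reporter in Foxp3, the defining factor of regulatory T cells (Treg cells), and cells were sorted as eGFP+ CD4+, with Foxp3+ cells included. All cells of both tissues were treated, so no untreated cell was compared, and the labels named no animal.

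The labels placed the 764 cells on plates p1 and p2, which gave 4 sets: small intestine (p2, well columns 13 to 24), spleen p1 left (columns 1 to 12), spleen p1 right (columns 13 to 24) and spleen p2 (columns 1 to 12). Values of the 4 sets are given below in this order unless another is stated. Filters on reads and genes removed 19, 12, 6 and 13 cells and the cell cycle filter 34, 47, 39 and 57 cells, which kept 72.1%, 69.3%, 76.3% and 63.5% of the cells, 400 of them from the spleen. Median depth per kept cell was 324546, 366140, 362505 and 315920 reads. CD4 T cell markers (Cd3e, Cd3d, Cd3g, Cd4 and Lck) were each detected, with 1 read or more, in no less than 97.5% of cells in any set. The sets stood apart in their share of Treg cells, since Foxp3 was detected in 9, 85, 26 and 8 cells. Cd8a was detected in 28.5% of cells from the small intestine and in no more than 2.46% of those from a spleen set. Cd8b1, the other CD8 gene looked at, went the other way, at 8.03%, 16.5%, 14.5% and 10.7%. On p2, tissue and plate position cannot be told apart. Each tissue counted as 1 sample, so no test between tissues was possible, SDs are over cells, and nothing below has a replicate check over animals.

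IL-10 restrains inflammation, and in CD4+ T cells its gene is opened and driven by several families of DNA-binding proteins acting together. c-MAF (Maf), BATF and NFIL3 are basic leucine zipper proteins, Blimp-1 (Prdm1) is a zinc finger protein, AHR and BHLHE40 are basic helix-loop-helix proteins, IRF4 and IRF1 belong to the interferon-regulatory family, and STAT3 carries cytokine signals such as those of IL-6, IL-21 and IL-27 to the nucleus. Of these, BHLHE40 is known as a repressor of Il10, while BATF and IRF4 bind DNA together at composite sites.

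The sequences just before the start of transcription are shown for 3 regulators that stood at different places in the results, Prdm1 and Nfil3 (the pair whose correlation with Il10 reached 0.2 in each spleen set) and Irf1 (whose correlation with Il10 stayed under 0.2 in every set). RefSeq promoters on GRCm38.p6 were matched for 6 of the 10 genes, namely Prdm1, Nfil3, Batf, Irf4, Stat3 and Irf1, and the 250 bases before the start were searched on both strands. Capitals mark matches to the motifs searched, which were TGANTCA (AP-1, the site of BATF and its partners), GCGTG (the core of the AHR response element), TTCNNNGAA (STAT), the IRF element, TTANNTAA (NFIL3), TGCTGAC (a MAF site), CACGTG (an E-box bound by BHLHE40) and AGNGAAAG (Blimp-1). The windows are chr10:44458749-44458998 on the minus strand for Prdm1, chr13:52981040-52981289 on the minus strand for Nfil3 and chr11:53769764-53770013 on the plus strand for Irf1, each read 5′ to 3′ toward the gene.
Prdm1: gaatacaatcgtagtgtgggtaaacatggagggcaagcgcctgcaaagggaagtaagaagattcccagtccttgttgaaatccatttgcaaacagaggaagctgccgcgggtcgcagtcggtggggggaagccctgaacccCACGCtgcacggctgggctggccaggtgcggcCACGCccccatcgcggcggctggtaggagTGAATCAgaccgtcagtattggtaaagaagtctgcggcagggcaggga
Nfil3: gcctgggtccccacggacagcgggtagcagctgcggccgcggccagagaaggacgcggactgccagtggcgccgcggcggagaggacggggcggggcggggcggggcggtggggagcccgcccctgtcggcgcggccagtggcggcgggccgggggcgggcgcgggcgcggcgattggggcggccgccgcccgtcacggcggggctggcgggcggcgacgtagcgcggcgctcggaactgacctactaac
Irf1: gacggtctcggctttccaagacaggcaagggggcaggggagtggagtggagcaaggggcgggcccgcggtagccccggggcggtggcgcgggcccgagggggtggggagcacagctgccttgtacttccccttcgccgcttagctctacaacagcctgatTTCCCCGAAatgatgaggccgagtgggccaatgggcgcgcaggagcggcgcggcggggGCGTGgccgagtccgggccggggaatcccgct

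The Prdm1 window held an AP-1 match, TGAATCA, from base -48 to -42 relative to the start, and the AHR core on the opposite strand (CACGC) at -109 to -105 and at -77 to -73. The Irf1 window held a STAT match, TTCCCCGAA, at -90 to -82 and an AHR core at -32 to -28. A second Irf1 start was also listed (chr11:53770223-53770472, not printed). Its window held AHR cores at -46 to -42 and -12 to -8 and no STAT match. The Nfil3 window held none of the 8 motifs. These matches do not overlap one another. Over 32536 promoter windows of the same length, the AP-1 letters were present in 6.73%, the STAT letters in 7.04% and the AHR core in 28.3%, so the last is a common match. A match is a description of letters and not of binding.

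Il10 itself was the most abundant of the 10 transcripts per length in every set. Mean Il10 was 2361 ± 2210, 1947 ± 2038, 1921 ± 2480 and 807 ± 1343 CPM (SD over cells), and it was detected in 99.3%, 95.5%, 92.4% and 77.9% of cells (95% exact binomial intervals, for counting error only, 96% to 100%, 90.4% to 98.3%, 86.8% to 96.2% and 69.5% to 84.9%). Spleen p2 stood below the other sets, with a median of 130.2 CPM against 1826, 1261 and 1240 CPM. Its Il10 was also the most concentrated, since the top 10% of its cells held 51.9% of the summed Il10 CPM against 31.8%, 34.1% and 36.5%. Per kilobase of exon, Il10 stood at 1802, 1487, 1466 and 616 CPM, and Batf came second in every set at 356.2, 285.6, 281.8 and 212.6 CPM. Ahr was lowest in the small intestine, in spleen p1 right and in spleen p2, at 27.4, 20.6 and 9.06 CPM per kilobase, and Bhlhe40 was lowest in spleen p1 left, at 14.2 CPM per kilobase. Neighbours in this order differed by less than the larger of their SDs over cells, and some by more than the smaller.

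eGFP, the reporter message from the Il10 locus, was read out separately. It reached a mean of 161.9, 79, 107.9 and 61.2 CPM and was detected in 75.9%, 63.9%, 60% and 46.7% of cells. Spearman's rho of eGFP with Il10 over the cells of a set was 0.65, 0.50, 0.71 and 0.76, and all correlations over cells here are descriptions, since cells of a set share a plate, a sort and possibly an animal. Cells with an eGFP read had a median Il10 of 2275, 1878, 2091 and 1191 CPM, and cells without one had 629, 544.2, 327.1 and 2.81 CPM. Of the 1, 6, 11 and 27 cells with no Il10 read, 0, 0, 1 and 1 had an eGFP read. The median depth of those 27 cells of spleen p2 was 312812 reads, close to the 322793 reads of the cells with Il10.

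**Figure D1:**
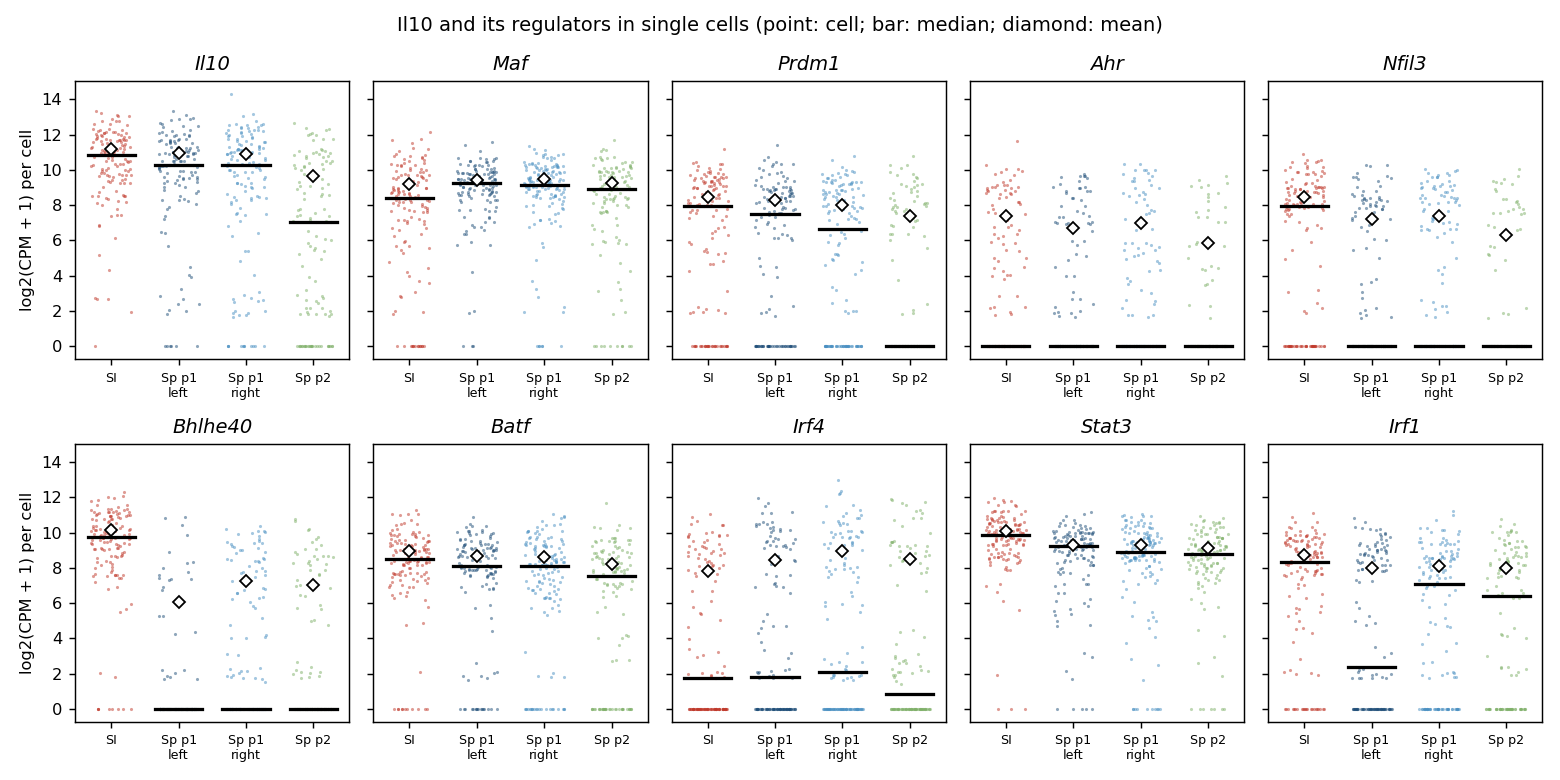
Levels of the 10 genes in single cells of the 4 sets (SI, small intestine, and Sp, spleen), as log2(CPM + 1) on the vertical axis, with a point per cell, a bar at the median and a diamond at the mean CPM. Il10 lies highest in the small intestine and lowest in spleen p2 (medians of 1826 and 130.2 CPM), and Bhlhe40 separates the small intestine (median of 844 CPM) from the spleen sets (median of 0 CPM in each).

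Between tissues, 8 of the 10 genes had a higher mean in the small intestine than in every spleen set by any amount, where 24.1% of all genes did, and Maf and Irf4 had a lower mean, where 44.7% of all genes did. At a limit of 2-fold against all 3 spleen sets, the higher genes were Nfil3 and Bhlhe40 (2 of 10, background 5.2%) and none was lower (background 11%). The median of all genes lay at a log2 ratio of -0.20, -0.22 and -0.24 against spleen p1 left, p1 right and p2, so small differences in CPM are shifted toward the spleen. TMM and DESeq2 factors brought these medians to between -0.03 and 0.01, and Stat3 also passed 2-fold under DESeq2 factors.

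Bhlhe40 differed most between tissues. It was detected in 94.2% of cells from the small intestine (88.8% to 97.4%) and in 21.1%, 46.9% and 40.2% of the cells of the spleen sets, with means of 1132 CPM against 66.6, 151.2 and 131.7 CPM. The small intestine was 16.8-, 7.44- and 8.54-fold higher, and its lower quartile of 383.3 CPM lay above the upper quartile of each spleen set (0, 151.9 and 109.04 CPM). In spleen p1 left, 93.3% of the Bhlhe40 CPM came from the top 10% of cells, so its mean there rests on few cells. On CPM per kilobase, Bhlhe40 ranked 3 of the 10 genes in the small intestine and 10, 9 and 9 in the spleen sets.

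Nfil3, a circadian and lymphoid leucine zipper factor, averaged 350.9, 146.3, 167.5 and 79.8 CPM and was detected in 71.5%, 47.4%, 49.7% and 29.5% of cells. The small intestine was 2.39-, 2.09- and 4.35-fold above the spleen sets, and the ranges over cells overlapped, from 0 to 1924 CPM in the small intestine and from 0 to 1244 CPM in the spleen. With the cycling cells included, Nfil3 no longer reached 2-fold against every spleen set.

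Stat3 and Irf1 were between 1.5- and 2-fold higher in the small intestine against each spleen set. Mean Stat3 was 1099, 626, 620 and 552.02 CPM, and it was detected in 93.1% of cells or more in every set. Irf1, an interferon-induced activator, averaged 421.4, 254.3, 273.7 and 258.3 CPM and was detected in 83.9% of cells from the small intestine against 59.4%, 69.7% and 63.9%. Prdm1, Ahr and Batf had ratios that depended on the spleen set. Mean Prdm1 was 356.8, 307.99, 256.6 and 167.3 CPM, which made the small intestine 1.16-, 1.39- and 2.13-fold higher. Ahr, a sensor of dietary and microbial ligands, averaged 168.6, 102.6, 126.8 and 55.9 CPM, for ratios of 1.64, 1.33 and 2.98. Batf averaged 500.8, 401.5, 396.2 and 298.9 CPM, for ratios of 1.25, 1.26 and 1.67. In all 3, as in Il10 (ratios of 1.21, 1.23 and 2.92), spleen p2 was the lowest of the 4 sets.

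The mean of Irf4 in every spleen set was above that of the small intestine, with CPM and with scran, TMM and DESeq2 factors. Its mean was 228.4 CPM there against 354.2, 498.9 and 355.6 CPM, a spleen level 1.55-, 2.18- and 1.55-fold higher, although the share of cells in which it was detected was alike at 50.4%, 54.1%, 57.2% and 50%. The top 10% of cells held 55.2% of its CPM in the small intestine and 56.9%, 61.1% and 71.3% in the spleen sets, and the highest single cells were at 2093 CPM against 3918, 7976 and 3865 CPM. Maf was nearly level, at 598, 675, 703 and 600 CPM. Its direction against p1 left and against p2 turned to higher in the small intestine under scran, TMM and DESeq2 factors, so no direction is given for it. The share of cells with Cd8a, with Cd8b1 and with Foxp3 moved with the tissue and the sets. Without the Foxp3 cells, the regulators at least 2-fold higher in the small intestine than in every spleen set were again Nfil3 and Bhlhe40. Mean Bhlhe40 was then 1170 CPM against 160.1, 164.02 and 138.9 CPM. The part of CD8 gene expression in these ratios, and of Foxp3 cells beyond this, was not tested.

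Within the sets, no regulator had a rho of at least 0.2 with Il10 in all 4 (0 of 9, background 0.0216%). In the 3 spleen sets together, Prdm1 and Nfil3 met that limit (2 of 9, background 0.378%). Without the Foxp3 cells, Maf met it too, at 0.41, 0.21 and 0.42. Nfil3 fell short of it with cycling cells included (0.19 in p1 right), without the cells that had no Il10 read (0.18 in p1 right and 0.17 in p2) and given total reads and number of genes (0.198 in p2), and Prdm1 met it in each of these. In single sets the limit was met by 0, 2, 4 and 7 of the 9 regulators, where 0.745%, 2.07%, 2.18% and 5.77% of all genes met it. The median rho of the regulators was 0.04, 0.14, 0.15 and 0.24, against -0.01, 0.00, 0.01 and 0.02 over all genes. The median was thus lowest in the small intestine and highest in spleen p2, where Il10 itself was most unevenly spread over cells, and this difference between sets was not tested. Leaving out cells with no Il10 read lowered the rho of Prdm1 to 0.07, 0.25, 0.38 and 0.39.

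**Figure D2:**
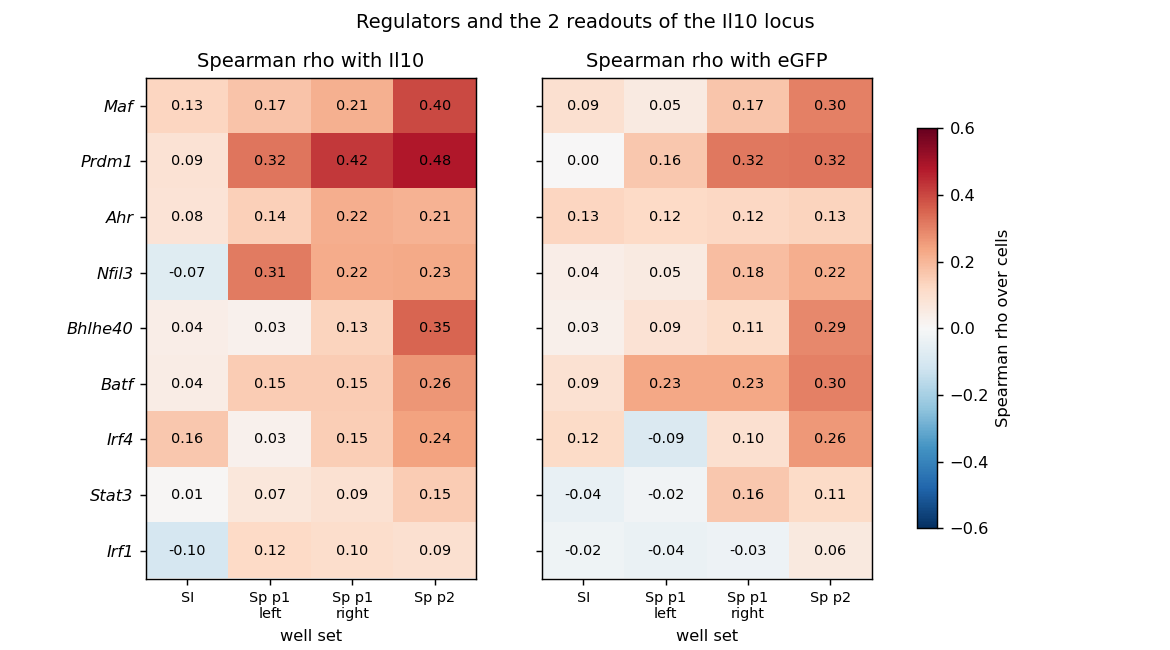
Spearman's rho over the cells of each set between each regulator and Il10 (left) or eGFP (right), with sets in columns and regulators in rows. Prdm1 runs from 0.09 in the small intestine to 0.48 in spleen p2 against Il10, and Irf1 stays between -0.10 and 0.12.

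Prdm1, whose product Blimp-1 drives effector differentiation, had the highest rho of the regulators in each spleen set. Its rho with Il10 was 0.09, 0.32, 0.42 and 0.48, and with eGFP 0.00, 0.16, 0.32 and 0.32. The first place in p1 left was not stable, since Nfil3 stood at 0.31 there. Without the cells that had no Il10 read, Nfil3 stood at 0.26 and Prdm1 at 0.25 in that set. Cells of each set were also split into 3 equal groups by Il10, called tertiles here, and the mean Prdm1 CPM of the highest tertile was set over that of the lowest. In the spleen sets Prdm1 went from 178.7 to 421.3 CPM, from 89.1 to 375.995 CPM and from 26.4 to 311.6 CPM. The share of cells with Prdm1 detected went from 53.3% to 79.5%, from 40.8% to 83.3% and from 22% to 67.5% in the same sets. In the small intestine Prdm1 went from 320 to 462.9 CPM, and its share of cells stood at 80.4% and 84.4%. In spleen p1 right and in p2, the exact binomial intervals of the lowest tertile (27% to 55.8% and 10.6% to 37.6%) and of the highest (69.8% to 92.5% and 50.9% to 81.4%) did not overlap. In spleen p1 left (37.9% to 68.3% and 64.7% to 90.2%) and in the small intestine (66.1% to 90.6% and 70.5% to 93.5%) they did. These intervals cover counting error only, and cells are not replicates, so their overlap does not test a difference.

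Maf, which binds and activates the Il10 promoter in T helper subsets, had a rho with Il10 of 0.13, 0.17, 0.21 and 0.40. Its mean was higher in the highest than in the lowest tertile of every set, going from 555.6 to 735 CPM, from 599 to 820 CPM, from 565.1 to 830 CPM and from 360 to 799 CPM. When 4043 genes detected in no less than 25% of cells in any set were ranked by their lowest rho over the 4 sets, Maf stood at rank 12, ahead of Prdm1 at 47 and Ahr at 54. Batf, Irf4 and Stat3 had 3.81%, 6.16% and 9.94% of the genes above them, Nfil3 and Irf1 had 44.9% and 60.5%, and Bhlhe40 was not ranked because it was detected in too few cells of 1 spleen set.

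Ahr had a rho with Il10 of 0.08, 0.14, 0.22 and 0.21. In the spleen sets its mean went from the lowest to the highest tertile from 69.3 to 158.8 CPM, from 55.5 to 153.9 CPM and from 44.4 to 104.2 CPM, while in the small intestine it was 206.6 and 193.8 CPM. Split by eGFP in place of Il10, the ratio in p1 right turned to a log2 value of -0.26. Nfil3 had a rho of -0.07, 0.31, 0.22 and 0.23. Its tertile means went from 85.7 to 178.96 CPM, from 109.1 to 227.8 CPM and from 59 to 96.6 CPM in the spleen, and from 398.8 to 320 CPM in the small intestine. In spleen p1 left, 24.4% of the cells of the lowest and 63.6% of the highest tertile had Nfil3 detected.

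Over all kept cells, Bhlhe40 had its highest rho with Il10 in spleen p2, with values of 0.04, 0.03, 0.13 and 0.35. Its mean there went from 26.4 to 205.1 CPM and its share of cells from 17.1% to 55%, so the known repressor stood higher where Il10 stood higher. In p1 left the ratio of tertile means had no stable direction, with log2 values of 1.02 as reported, -0.11 with cycling cells and -0.0019 split by eGFP. Without the Foxp3 cells, the rho of Bhlhe40 with Il10 was 0.06, 0.23, 0.17 and 0.38. Its tertile ratio was then at least 1.5-fold in all 3 spleen sets.

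Batf had a rho with Il10 of 0.04, 0.15, 0.15 and 0.26, and with eGFP of 0.09, 0.23, 0.23 and 0.30. It was the regulator that reached 0.2 with eGFP in all 3 spleen sets (1 of 9, background 0.054%), and none did so in all 4 sets (0 of 9, background 0%). In the spleen sets it did not reach 0.2 in all 3 with cycling cells included or with Pearson's r, and without the Foxp3 cells Prdm1 reached it too. Irf4 had a rho with Il10 of 0.16, 0.03, 0.15 and 0.24. In the small intestine it was the regulator of the highest rho, and its mean went from 154.3 to 318.3 CPM over the Il10 tertiles, with detection in 37% and 60% of cells. In p1 right its mean went from 345.97 to 711 CPM, and in p1 left and p2 its mean changed by less than 1.5-fold. The share of cells with Irf4 detected went from 57.8% to 61.4%, from 49% to 64.6% and from 29.3% to 67.5% in the spleen sets. That first place in the small intestine was not stable. Maf stood at 0.21 and Irf4 at 0.10 there with cycling cells included, and at 0.14 and 0.13 after thinning. Stat3, at 0.01, 0.07, 0.09 and 0.15, and Irf1, at -0.10, 0.12, 0.10 and 0.09, stayed under 0.2 in every set, and their tertile means changed by less than 1.5-fold.

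By the tertile ratio, no regulator was at least 1.5-fold higher in the highest tertile in all 4 sets (0 of 9, background 0.507%), and Prdm1, Ahr and Nfil3 were so in all 3 spleen sets (3 of 9, background 2.27%). Without the Foxp3 cells Nfil3 was not among them (log2 0.55 in p1 left), and split by eGFP neither Ahr nor Nfil3 was (log2 -0.26 for Ahr in p1 right, 0.24 for Nfil3 in p1 left). Other regulators entered, namely Bhlhe40 and Batf without the Foxp3 cells, and Batf split by eGFP and with scran factors. In single sets the count was 1, 4, 4 and 6 of 9, against 20.8%, 20.4%, 18.8% and 23.6% of all genes. The single regulator of the small intestine was Irf4, and its share of the 9 lay under that background. Prdm1, at 1.45-fold in the small intestine, passed 1.5-fold there with cycling cells included and with scran factors.

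**Figure D3:**
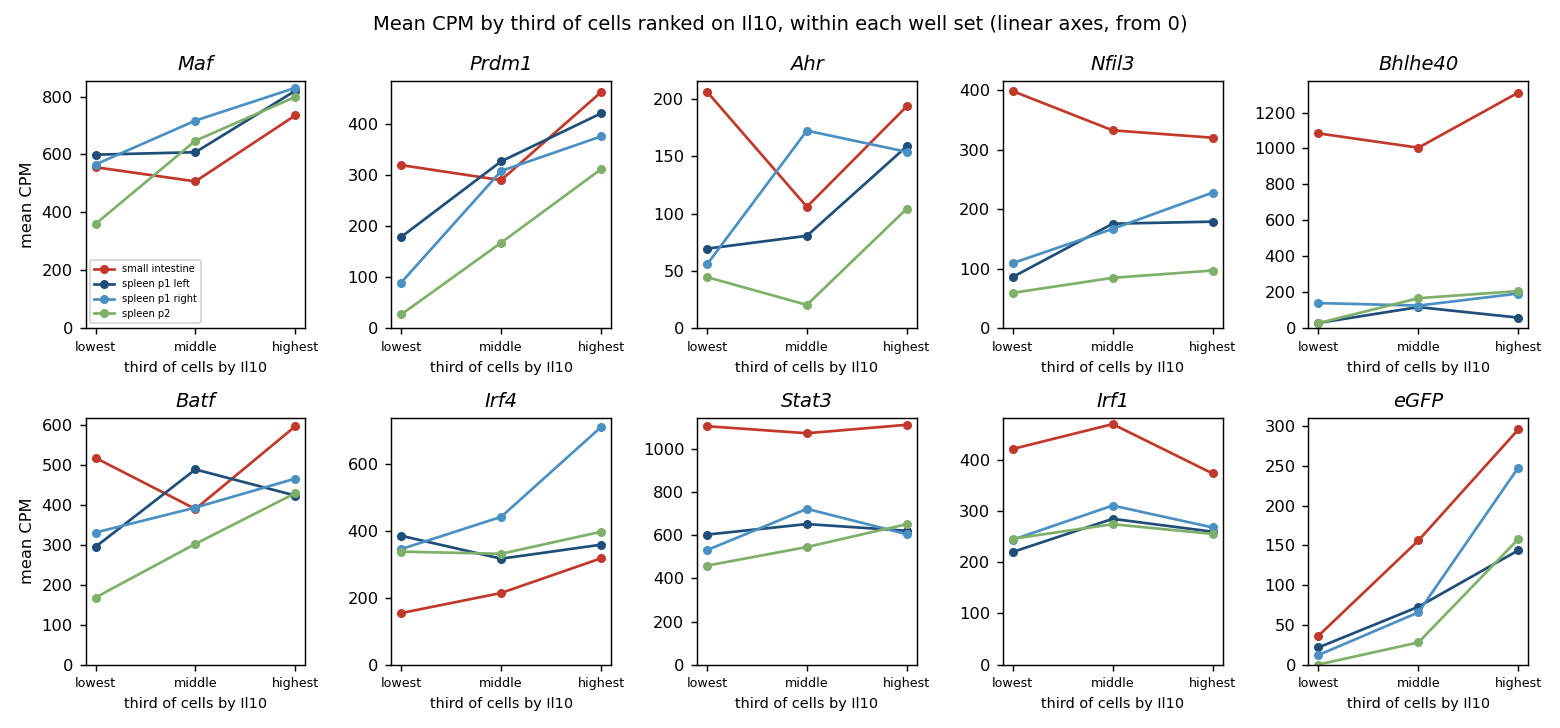
Mean CPM of each regulator in the lowest, middle and highest tertile of cells by Il10, 1 line per set, on linear axes that start at 0, with eGFP in the last panel. Prdm1 goes up across the tertiles of each spleen set (to 421.3, 375.995 and 311.6 CPM), whereas the tertiles of Stat3 and Irf1 differ by less than 1.5-fold.

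The regulators were also counted per cell, after each cell was thinned to 200000 reads so that depth was equal, which left out the 5, 5, 8 and 10 cells below that depth. Cells held reads of 6.93 ± 1.34, 5.54 ± 1.41, 5.88 ± 1.55 and 5.02 ± 1.78 of the 9 regulators (mean ± SD over cells). From the lowest to the highest Il10 tertile that number went from 6.84 to 7.18 in the small intestine, and from 4.95 to 5.98, from 4.91 to 6.67 and from 3.97 to 5.92 in the spleen sets. Its rho with Il10 was 0.08, 0.34, 0.50 and 0.51, and 0.09, 0.34, 0.49 and 0.50 given the number of genes detected. Prdm1 alone had stood at 0.09, 0.32, 0.42 and 0.48. Cells of the highest Il10 tertile of each spleen set still had fewer regulators on average than cells of the lowest tertile in the small intestine, by less than 1 SD over cells.

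**Figure D4:**
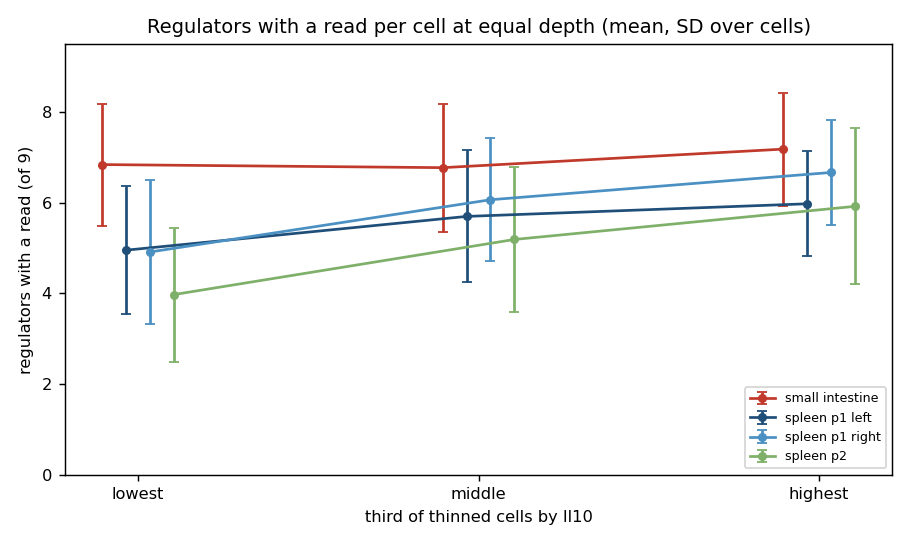
Mean number of the 9 regulators with a read per thinned cell (vertical axis, bars are the SD over cells) in the lowest, middle and highest tertile by Il10, for the 4 sets. The number is higher in each successive tertile of the 3 spleen sets and stays between 6.77 and 7.18 in the small intestine.

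Among themselves the regulators were weakly related. Of the 36 pairs of regulators, 15 had a positive rho in all 4 sets and 0 reached 0.2 in all 4. The median rho over the pairs was 0.10, 0.06, 0.09 and 0.14, and 2, 2, 4 and 8 pairs reached 0.2. Batf took part in 7 of the 15 pairs and lacked only Maf among its 8 partners. No share over pairs of other genes was computed, so these counts only describe the pairs followed here and cannot be set against a background. The pair Bhlhe40 and Batf stood at 0.25, 0.32, 0.21 and 0.15, and Nfil3 and Batf at 0.24, 0.11, 0.25 and 0.16. Batf and Irf4, the partners on composite sites, stood at 0.16, 0.15, 0.20 and 0.32. Maf and Ahr, also known to act together on Il10, stood at 0.19, 0.15, 0.17 and 0.24. Maf and Prdm1 had no positive relation in the small intestine (-0.03) and stood at 0.17, 0.19 and 0.32 in the spleen sets.

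**Figure D5:**
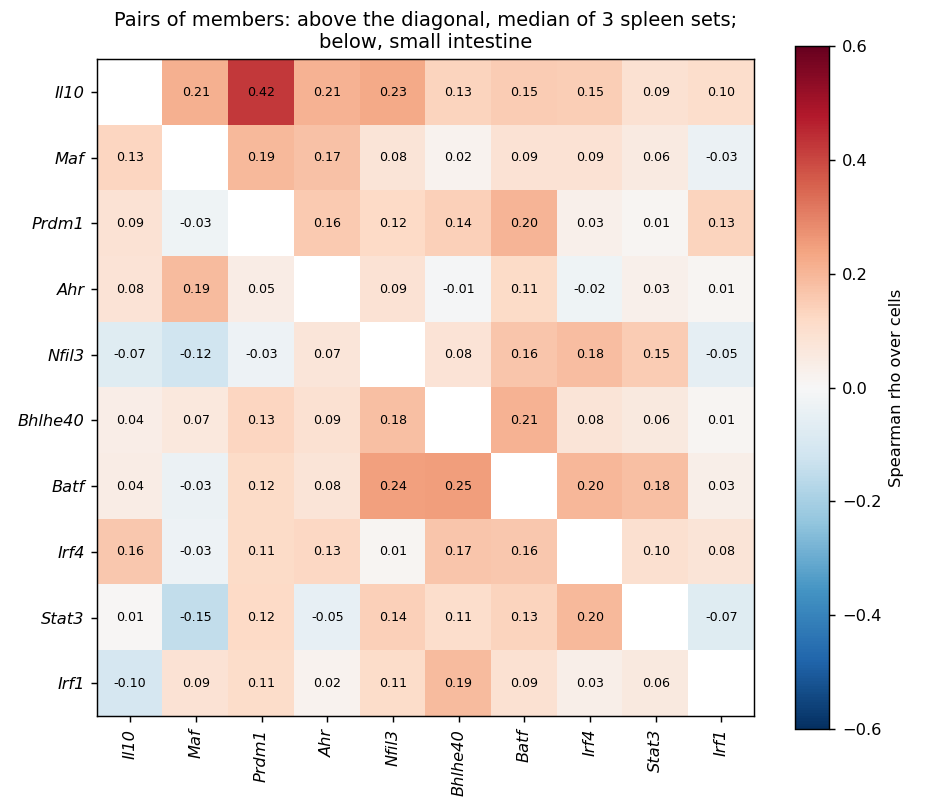
Spearman's rho between each pair of the 10 genes over cells, with the small intestine below the diagonal and the median of the 3 spleen sets above it. Prdm1 with Il10 in the spleen is the darkest square at 0.42, and the highest pair of regulators in the small intestine is Bhlhe40 with Batf at 0.25.

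Treg cells were part of the sort, and their share differed between sets, so the genes were also compared between cells in which Foxp3 was and was not detected. Bhlhe40 had a lower mean in Foxp3 cells in every set, at 588, 13.8, 92.8 and 29.4 CPM against 1170, 160.1, 164.02 and 138.9 CPM in the other cells. Mean Maf was lower in them as well, at 571.5, 623, 614 and 373.6 CPM against 600, 767, 723 and 616 CPM, and mean Irf4 at 84.3, 346.4, 309.9 and 71.5 CPM against 238.5, 368.1, 540.2 and 375.6 CPM. For Maf and Irf4 the share of cells did not follow the means. Maf was detected in 100%, 97.6%, 100% and 100% of Foxp3 cells against 89.1%, 97.9%, 95% and 91.2% of the others. Irf4 was detected in 55.6%, 56.5%, 34.6% and 75% against 50%, 50%, 62.2% and 48.2%. Prdm1 was higher in the Foxp3 cells of the 3 spleen sets (329.7, 393.02 and 291.7 CPM against 269.5, 226.8 and 158.5 CPM). The small intestine and spleen p2 had 9 and 8 such cells, so these 2 sets carry little weight. Without the Foxp3 cells, rho with Il10 in p1 left (48 cells) was 0.41 for Maf, 0.47 for Prdm1, 0.27 for Ahr and 0.31 for Batf, against 0.17, 0.32, 0.14 and 0.15 with them. In p1 left, Bhlhe40 stood at 0.23 against 0.03, Nfil3 at 0.32 against 0.31 and Irf4 at -0.06 against 0.03. Stat3 and Irf1 stood there at 0.11 and 0.14 against 0.07 and 0.12. In the other sets, Prdm1 stood at 0.09, 0.46 and 0.47 without the Foxp3 cells.

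The genes whose level was most like that of Il10 were named by their lowest rho over the 4 sets. Tnfrsf4 (OX40, a costimulatory receptor) led, with 0.23, 0.34, 0.35 and 0.51, followed by the unnamed gene 2010111I01Rik with 0.23, 0.21, 0.24 and 0.31, and these were the 2 genes at 0.2 or above in all 4 sets. Ctla4 (an inhibitory receptor), F2r, Notch1, Ifng, Ctsb, Eea1, Mapk6 and Ptms completed the first 10, with lowest values from 0.14 to 0.19. None of the 10 was a regulator followed here, but 10 genes are a small share of the 4043 ranked, and Maf stood close behind at rank 12. Genes of most negative relation included Sptbn1 and the ribosomal genes Rps3a1, Rps26 and Rplp0, and Rplp0 stood at -0.15, -0.19, -0.39 and -0.37. Number of genes detected had a rho with Il10 of -0.08, 0.04, 0.11 and 0.15, and total reads had 0.03, 0.07, 0.01 and 0.04.

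Other genes of the same pathways were taken from lists. Of the AP-1 family genes, which include partners of BATF, 9 of 11 passed the low-value filter, 4 were at least 2-fold higher in the small intestine than in every spleen set and 0 lower (backgrounds over all genes of 5.2% and 11%). These were Junb (1415 CPM against 263.1, 307.8 and 280.4), Fosl2 (652 against 43, 91.5 and 47.6), Jun (94.1 against 25.9, 27.3 and 35.9) and Fosb (44.8 against 4.87, 16.3 and 6.7). The median log2 ratio of that list was 0.54, 0.68 and 0.71, where all genes stood at -0.20, -0.22 and -0.24. Of the 9 interferon-regulatory and STAT genes, 0 were higher and 1 was lower, Irf8, at 67 CPM against 569.7, 360.9 and 238.1, so that the share of lower genes in that list was at the background of 11%. Irf8 also changed sign with Il10 between tissues, with a rho of -0.20 in the small intestine and of 0.27, 0.28 and 0.25 in the spleen sets, a difference that was not tested.

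Upstream receptors and signal genes (10 tested, against backgrounds of 5.2% higher and 11% lower) gave 1 higher, the TGF-β receptor Tgfbr2 (274.2 CPM against 126.6, 128.3 and 128.1), and 2 lower, both of the IL-6 receptor. Il6ra was detected in 0.73% of cells from the small intestine against 50.4%, 40.7% and 58.2%, and Il6st, the shared signalling chain gp130, stood at 63.5 CPM against 540.1, 318.02 and 220.9. Of the lineage factors, 19 of 21 were tested, 3 were higher (Rora, Id2 and Crem) and 4 lower (Egr2, Id3, Bach2 and Tcf7), against the same backgrounds of 5.2% and 11%. Tcf7, which marks less differentiated T cells, stood at 2.27 CPM against 207.8, 216.3 and 760, and its rho with Il10 in the spleen sets was -0.37, -0.32 and -0.49. Bach2, a repressor of effector genes, stood at 8.05 CPM against 81.3, 50.3 and 169.1. Id3 was not detected in the small intestine, where a count of 0 is compatible with a share of 2.19% or less, and was detected in 8.27%, 4.14% and 14.8% of the cells of the spleen sets. Rora stood at 274.2 CPM against 61, 72.6 and 73.6.

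Of targets and feedback genes of the regulators, 9 of 10 were tested, 2 were higher (background 5.2%) and 0 lower (background 11%). Ahrr, the AHR-induced repressor of AHR, was detected in 19 cells of the small intestine (13.9%, 8.56% to 20.8%) and in 0 of 400 spleen cells, compatible with a share of 0.75% or less. Of the 19 cells, 11 also had Ahr detected (57.9%, 33.5% to 79.7%). So had 57 of the other cells of the small intestine (48.3%, 39% to 57.7%), and the difference was not tested. That comparison was chosen after the values of Ahrr were seen. Pim1, a kinase gene induced by STAT3, stood at 48.2 CPM against 19.5, 19 and 12.5. For the IL-10 receptor and the Il10 gene cluster, 3 of 7 genes were tested and neither limit was met. Il10ra, the receptor chain specific to IL-10, stood at 102.1 CPM against 199.9, 180.4 and 152.7, and Il10rb at 73.4 against 98.8, 115.2 and 107.04. Il19, Il20 and Il24, the neighbours of Il10 in its cluster, were not detected in any kept cell, compatible with a share of 0.559% or less for each.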

How the data were processed

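The deposited tables hold raw read counts per gene, 1 column per cell (764 cells, with 0 columns left unused), made by the authors from paired-end SMART-seq2 reads aligned with STAR in 2-pass mode. The submitters' processing notes name mm10 while the methods name another build (Mm8), so gene positions are given only for RefSeq promoter windows on GRCm38.p6. The counting tool, annotation and use of strand are not given in the sources used here. Strand, overlapping genes and near-identical copies could therefore affect single rows.

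Cells whose log reads or log number of genes fell under the tissue median by over 3 median absolute deviations were removed (50 cells), and so were cells in S or G2M phase by cyclone (scran 1.30.0, R 4.3.3), which kept 70.3%. Cells were sorted singly, each with a well of its own, so no barcode was shared and no doublet caller was run. CPM was computed here over gene rows without eGFP. Genes with a mean of at least 10 CPM in at least 1 set were used. Spearman's rho was taken over cells within each of the 4 sets. Tertile and tissue ratios are of mean CPM plus a pseudocount of 1 on the log2 scale, which understates changes of low genes. Limits were a rho of 0.2, 1.5-fold between tertiles and 2-fold between tissues, each in all sets named. edgeR 4.0.16 (TMM) and DESeq2 1.42.0 served only for factors of the 4 set sums. Intervals for shares are 95% exact binomial (Clopper-Pearson). For a share of 0, the limit is 3 counts of the total. No molecular identifiers were used, so reads that PCR copied do not count separate molecules, and intervals and limits cover counting error only. The scripts were tested on simulated data and ran in Python 3.11.15 (numpy 2.4.6, scipy 1.17.1, pandas 2.3.3, matplotlib 3.10.9).

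The genes, lists and limits were chosen with earlier results of these data known. Named in full are the 10 genes and eGFP. From each pathway list, genes past a limit are named, with values for at most 4 by size, and so are the 10 genes of highest and the 5 of lowest rho with Il10 among those detected in no less than 25% of cells in any set (1 of the latter is not reported here). Alternatives covered cell filter, scaling, depth, Foxp3 cells, correlation measure, cells without Il10, split, pseudocount and limits.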

Additional observations from a re-analysis of the deposited data

Results flagged for a closer look

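In the small intestine, 3 regulators had a lower mean in the highest than in the lowest Il10 tertile, while the mean was higher in the highest tertile of each spleen set. As log2 ratios, these were Ahr at -0.09 (spleen sets 1.19, 1.46 and 1.21), Nfil3 at -0.32 (1.05, 1.06 and 0.70) and Irf1 at -0.17 (0.24, 0.14 and 0.05). For Ahr the direction in the small intestine was not stable, since its rho with Il10 there was 0.08 and its ratio turned to 0.24 with cycling cells, 0.01 without Foxp3 cells and 0.81 split by eGFP. The spleen ratios of Irf1 were small, and turned to -0.55 and -0.23 in p1 left and p1 right split by eGFP and to -0.10 in p2 after thinning. Over all genes the median log2 ratio was -0.02 in the small intestine and -0.06, -0.07 and -0.05 in the spleen sets. A lower mean in the small intestine is therefore common among all genes, and the share of genes with the full pattern was not counted. The difference between the tissues was not tested, since each tissue is 1 sample.

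The cells removed as S or G2M also carried Il10. It had a read in 97.1%, 93.6%, 89.7% and 84.2% of them in the small intestine, spleen p1 left, spleen p1 right and spleen p2 (34, 47, 39 and 57 cells), with means of 1126, 1384, 974 and 922 CPM.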

How the results depend on the processing

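No paired analysis was possible because the labels number no animal or replicate and the values come from no test. The count of 0 regulators with a rho of at least 0.2 with Il10 in all 4 sets was also 0 under each of the 8 alternatives planned for it, and with only the 3 spleen sets, chosen after seeing the data, it was 2. The tertile count of 0 became 1 (Prdm1) with cycling cells included, 1 (Prdm1) with scran factors and 3 in the spleen sets alone. The count of 2 genes at least 2-fold higher in the small intestine became 1 with cycling cells included and 4 (Nfil3, Bhlhe40, Stat3 and Irf1) at a 1.5-fold limit, and the count of 0 lower genes became 1 (Irf4) at that limit. Irf4 fell short of 1.5-fold with cycling cells included, thinned cells, and scran, TMM and DESeq2 factors. The count of 0 regulators with a rho of at least 0.2 with eGFP was 1 in the spleen sets alone. The count of 2 genes with a rho of at least 0.2 with Il10 in all 4 sets became 1 without the cells that had no Il10 read, 0 at a limit of 0.3 and 35 in the spleen sets alone, where fewer sets have to pass. The lowest rho of eGFP with Il10 moved from 0.50 to 0.66 without Foxp3 cells, and the cause was not tested.

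Of the tertile ratios of at least 1.5-fold, 3 values reversed, Bhlhe40 in spleen p1 left (-0.11 with cycling cells, -0.0019 split by eGFP) and Ahr in p1 right (-0.26 split by eGFP), where the cause was not tested. Tertile ratios under 1.5-fold changed sign in 16 more values, among them Bhlhe40 in p1 right (-0.35 with cycling cells) and, split by eGFP, Irf1 in p1 left (-0.55), Maf (-0.15) and Ahr (0.81) in the small intestine. Over the genes followed here and their alternatives, 86.1% of the correlations, 78.8% of the tertile ratios and 84.2% of the tissue ratios moved by less than 1 SD over the 3 spleen sets, and 35, 58 and 38 values moved by more. Depth and cell number limit the tertile ratios, since a tertile holds 40 to 49 cells and Ahr, Nfil3 and Bhlhe40 were detected in fewer than 50% of the cells of each spleen set.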
